A study of Mus musculus with 6 samples.

Results

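The mRNAs of 36 genes that fold, modify or dispose of proteins in the endoplasmic reticulum (ER), or that sense and answer ER stress, were examined in stromal cells sorted from mouse melanomas with and without ablation of ADAM12+ cells. The 36 genes were chosen by name, with earlier results of these data known, and all 36 have a row among the 53801 genes of the count table. They comprise 9 chaperones and cochaperones of the BiP and GRP94 systems, 6 lectin chaperones and protein disulfide isomerases (PDIs), 2 collagen chaperones, 6 genes of ER-associated degradation (ERAD), 4 sensors and sensor transcription factors, and 9 genes of the ATF4 and CHOP branch. RNA was sequenced from PDPN+PDGFRα+ cells that had been sorted by flow cytometry from subcutaneous MO5 tumors, which grow from a B16 melanoma line that carries ovalbumin. The Ctrl group (DTR- in the labels, 3 libraries) came from non-transgenic littermates, and the DTR group (DTR+, 3 libraries) from ADAM12-DTR mice, in which a bacterial artificial chromosome carries the tetracycline transactivator and the diphtheria toxin receptor under Adam12 sequences. Both groups received diphtheria toxin, so the receptor, and not the toxin, separates them. Mice were on the C57Bl/6 background and were 8 to 12 weeks old when tumor cells were implanted. The sources used here do not give the number of animals behind a library or the day of collection of these libraries, so p-values measure the spread between these 6 samples.

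Secreted and membrane proteins fold in the ER. BiP (Hspa5) and GRP94 (Hsp90b1) hold unfolded chains, calnexin and calreticulin retain glycoproteins, and PDIs form and reshuffle disulfide bonds. When unfolded chains accumulate, the kinases IRE1α (Ern1) and PERK (Eif2ak3) and the membrane-bound factor ATF6 start the unfolded protein response: IRE1α splices the Xbp1 mRNA, ATF6 is cut to release a transcription factor, and PERK phosphorylates eIF2α, which favours translation of ATF4. ATF6 and XBP1 act on chaperone and ERAD genes, whereas ATF4 acts on amino acid synthesis genes and on Ddit3, which encodes CHOP. ATF4 also answers amino acid shortage without ER stress. Fibroblasts that secrete collagen rely on HSP47 (Serpinh1) and FKBP65 (Fkbp10), which assist procollagen folding.

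Libraries held 22339635 to 34271929 counts, and 3 counts corresponded to 0.0873 to 0.132 CPM (counts per 1000000 counts of the library, after TMM scaling), a floor that covers counting error only. The 10 fibroblast markers, among them Pdgfra, Pdpn and Col3a1, were all detected, and their summed level was 5217 to 13691 CPM in Ctrl and 5611 to 14170 CPM in DTR, with Ctrl 1, DTR 1 and DTR 3 at 10880 CPM or more and the others at 5611 CPM or less. Of 12 pigment cell markers, 11 were detected (Mc1r was at 0) and summed to 17364 to 20367 CPM in Ctrl and 16265 to 19191 CPM in DTR, led by Dct at 5751 to 7580 CPM. The sorted fractions held abundant melanoma transcripts in every library beside the stromal ones. Summed markers of other cells were far lower, at most 210 CPM for macrophages, 100 CPM for endothelial cells, 93.4 CPM for B and plasma cells, 37.7 CPM for T cells and 7.68 CPM for neutrophils. Adam12 was at 216, 181 and 175 CPM in Ctrl and 165, 151 and 112 CPM in DTR, with a log2 fold change of -0.42 ± 0.154 (SE) and an adjusted p of 0.602. In such bulk samples, fewer cells of a type and less RNA per cell cannot be told apart.

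The promoters of several of these genes carry short elements that are known binding sites of the response's own transcription factors, and these are shown because they belong to separate branches and do not rest on the RNA values. Windows from 250 bases before to 50 bases after the RefSeq start site (GRCm38.p6) were found for 31 of the 36 genes, not for Hyou1, Manf, Fkbp10, Derl1 and Atf6, and were searched on both strands. The ER stress element (ERSE, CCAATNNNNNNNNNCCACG, bound by NF-Y with ATF6 or XBP1) was present in 39 of 32851 windows of all genes (0.119%) and in 9 of the 31 genes. In the lines below, the capitals mark the fixed letters of the element and 5 bases are kept on each side.
Hspa5, chr2:34772020-34772048, + strand: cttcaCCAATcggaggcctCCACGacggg
Hsp90b1, chr10:86705633-86705661, - strand: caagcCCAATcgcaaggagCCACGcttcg
Hsp90b1, chr10:86705528-86705556, + strand: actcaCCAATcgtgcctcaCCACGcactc
Creld2, chr15:88819515-88819543, - strand: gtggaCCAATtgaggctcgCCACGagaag
Dnajc3, chr14:118937822-118937850, + strand: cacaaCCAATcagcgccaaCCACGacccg
Calr, chr8:84847070-84847098, + strand: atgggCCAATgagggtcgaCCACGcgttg
Canx, chr11:50325795-50325823, - strand: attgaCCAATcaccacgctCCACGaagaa
Pdia6, chr12:17266486-17266514, + strand: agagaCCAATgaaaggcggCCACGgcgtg
Syvn1, chr19:6046527-6046555, + strand: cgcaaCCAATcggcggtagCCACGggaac
Derl3, chr10:75893237-75893265, - strand: gctagCCAATggggaagtcCCACGgtaga

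The compact form ERSE-II (ATTGGNCCACG) was present in 12 of the windows (0.0365%), among them those of Dnajb11 and Herpud1. The C/EBP-ATF response element (CARE, TGATGNAA), at which ATF4 with a C/EBP partner binds, was present in 1304 windows (3.97%), among them those of Asns, Chac1, Trib3 and Herpud1. Herpud1 was the only one of the 31 with both kinds of element, at separate positions. The element UPRE (TGACGTGG) was present in 222 windows (0.676%) and in none of the 31, which says only that these letters are not in these windows.
Dnajb11, ERSE-II, chr16:22857847-22857867, + strand: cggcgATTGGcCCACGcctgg
Herpud1, ERSE-II, chr8:94386372-94386392, + strand: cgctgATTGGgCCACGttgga
Herpud1, CARE, chr8:94386312-94386329, - strand: cgggcTGATGcAAcccgc
Asns, CARE, chr6:7693220-7693237, - strand: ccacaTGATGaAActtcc
Chac1, CARE, chr2:119351044-119351061, - strand: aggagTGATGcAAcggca
Trib3, CARE, chr2:152344034-152344051, + strand: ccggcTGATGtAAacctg

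The upstream parts of the Hspa5 and Creld2 windows are shown whole, as a pair of ERSE-bearing chaperone genes with unlike estimates for the comparison of DTR with Ctrl. Capitals mark the fixed letters of the exact ERSE match, which lies on the gene's own strand in Hspa5 and on the opposite strand in Creld2. Copies with other letters were not searched for and are not marked. Both sequences run in the direction of transcription up to the base before the start site.
Hspa5, chr2:34771840-34772089, + strand: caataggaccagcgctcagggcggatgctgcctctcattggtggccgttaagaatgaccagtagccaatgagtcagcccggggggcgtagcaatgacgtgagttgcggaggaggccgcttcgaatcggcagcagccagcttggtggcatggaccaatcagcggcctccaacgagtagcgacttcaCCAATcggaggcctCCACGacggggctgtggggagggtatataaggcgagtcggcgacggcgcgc
Creld2, chr15:88819396-88819645, + strand: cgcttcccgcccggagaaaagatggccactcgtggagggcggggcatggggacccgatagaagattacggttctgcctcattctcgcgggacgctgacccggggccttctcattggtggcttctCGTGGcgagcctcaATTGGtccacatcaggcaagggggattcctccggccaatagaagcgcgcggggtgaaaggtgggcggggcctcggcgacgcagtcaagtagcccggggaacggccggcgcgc

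**Figure D1:**
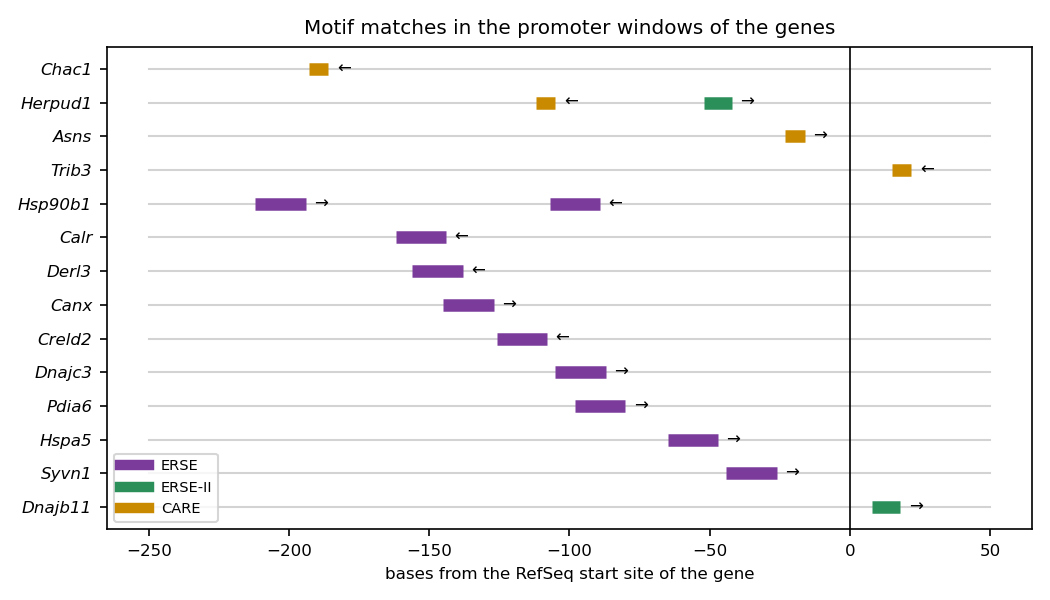
Positions of the ERSE, ERSE-II and CARE matches (coloured blocks) in the 14 genes with a match, in bases from the RefSeq start site (vertical line). Arrows give the match's direction relative to the gene. The ERSE match of Hspa5 began 65 bases before the start site and that of Calr 162 bases before it, and the matches in Dnajb11 and Trib3 lay after it.

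The 8 most abundant of the transcripts were those of chaperones and PDIs, but the levels of the roles overlapped. Divided by exon length, the mean over the 6 libraries was highest for Calr (423 CPM per kilobase) and Hsp90b1 (385), followed by Pdia4 (324), P4hb (300), Canx (287), Serpinh1 (279), Hspa5 (264) and Pdia3 (224). The next gene, Atf4, was at 77.7 CPM per kilobase, above all other folding genes, and Ddit3 (28.6) lay above the chaperone genes Hyou1 (27.5), Fkbp10 (25.9) and Dnajb9 (12.5). Among sensors the levels were 7.99 (Ern1) to 20.3 (Xbp1) CPM per kilobase, and in the ATF4 and CHOP branch 3.09 (Chac1) to 77.7 (Atf4), so that the highest and the lowest of the 35 tested genes were 137-fold apart. The counts may include intron reads, which would raise a value per kilobase of exon most in long genes. Divided by the whole span of the gene instead, Calr stayed first (239 CPM per kilobase) and Ern1, with exons on 8.77% of its 93203 bases, was the lowest of the 35 at 0.701.

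**Figure D2:**
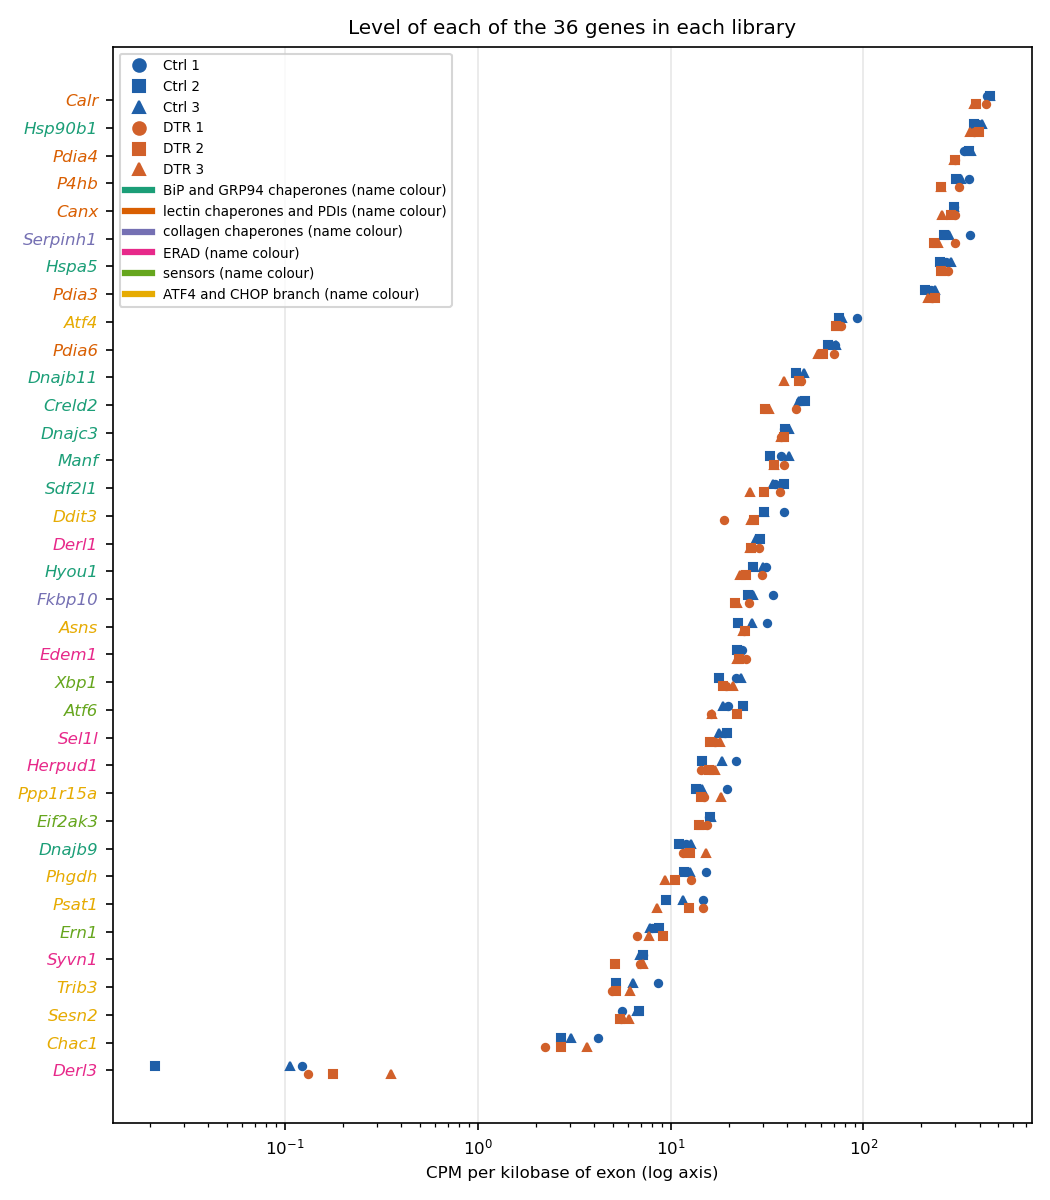
Level of each of the 36 genes in each library, as CPM per kilobase of exon on a log axis, ordered by the mean (blue: Ctrl, orange: DTR, shapes: replicates, name colours: roles). The 8 most abundant genes lie between 224 and 423 CPM per kilobase on average, and Derl3 stands alone near 0.152.

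None of the 35 tested genes differed between DTR and Ctrl past the threshold, and Derl3 had too few counts for the test. In the quasi-likelihood test of edgeR, with p-values adjusted by Benjamini-Hochberg over all genes tested, 0 of the 35 tested genes had an adjusted p under 0.05, and so did 0 of all 15133 (0%). Their lowest adjusted p was 0.602. At an unadjusted p under 0.05, 4 of the 35 were lower in DTR (Creld2, Pdia4, Fkbp10 and Ddit3) beside 4.11% of all genes, and 0 were higher beside 3.81%. By the DESeq2 Wald test 0 of the 35 and 31 of 20360 genes (0.152%) had an adjusted p under 0.05. The estimates nevertheless lay mostly on 1 side: 32 of 35 log2 fold changes (DTR over Ctrl) were below 0, compared with 50.4% of all genes tested, and the median was -0.15 (-0.09 without Ctrl 1), compared with -0.0029 over all genes. The genes share libraries and regulators, so these 32 are not independent observations. Estimates ran from -0.47 (Ddit3) to 0.14 (Dnajb9), and all 35 95% intervals lay within 1 log2 unit of 0, 23 of them within 0.5.

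The 3 DTR libraries lay wholly below the 3 Ctrl libraries for 5 of the 35 genes (Creld2, Calr, Pdia4, Eif2ak3 and Ddit3), where 8.18% of all genes did so. They lay wholly above for 0 of the 35, where 6.32% of all genes did so. For these 5 the two-sided exact permutation test gave p = 0.1, the smallest p that 3 against 3 libraries allow. The median within-group SD of the genes was 0.155 on the log2(CPM + 0.5) scale, compared with 0.214 for all genes tested, which were not matched for level.

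**Figure D3:**
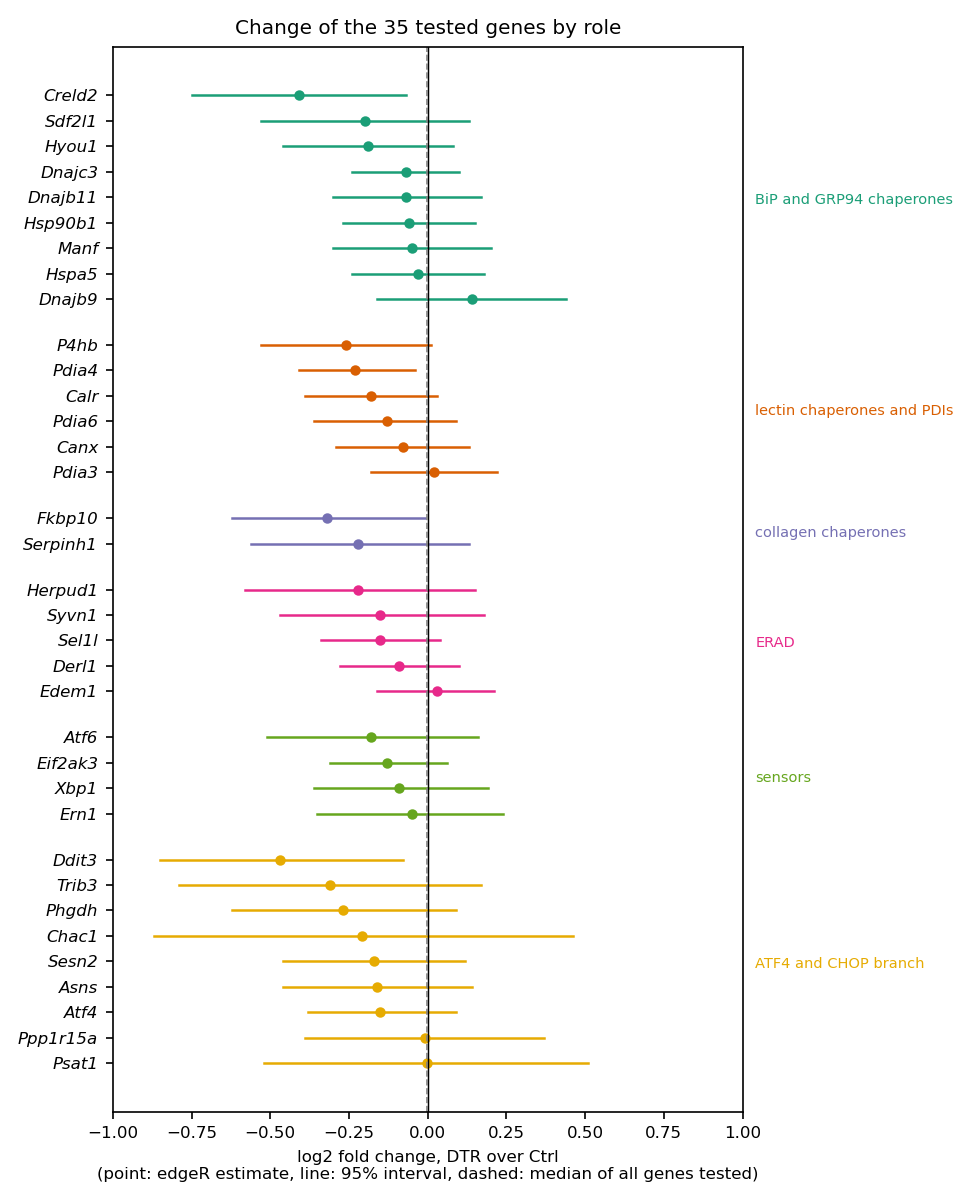
Log2 fold change (DTR over Ctrl) of the 35 tested genes with its 95% interval from the edgeR fit, grouped by role. The dashed line is the median of all genes tested. Points range from -0.47 (Ddit3) to 0.14 (Dnajb9), and 31 of the 35 intervals include 0.

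Among chaperones and cochaperones of BiP and GRP94, the main chaperones were level between groups and Creld2 had the lowest estimate. Hspa5, which encodes BiP and is a classic readout of ER stress, was at 1134, 1052 and 1198 CPM in Ctrl and 1156, 1065 and 1101 CPM in DTR, with overlapping groups and a log2 fold change of -0.03 ± 0.09 (SE, 95% interval -0.24 to 0.18). Hsp90b1 was at 1582 ± 76.3 CPM in Ctrl and 1520 ± 86.2 CPM in DTR (SD, n = 3 each), with an estimate of -0.06 ± 0.0908. Both intervals exclude a 2-fold difference in either direction (1 log2 unit). Creld2, an ER-resident protein with EGF-like repeats that is induced in ER stress, was at 64.3, 67.8 and 63.4 CPM in Ctrl and 60.7, 42.0 and 44.1 CPM in DTR. DTR 1 was the nearest to the Ctrl libraries, and the 2 other DTR libraries set the difference, at a log2 fold change of -0.41 ± 0.147 (unadjusted p = 0.0229, adjusted p = 0.602).

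The remaining 6 genes of that class had estimates from -0.2 to 0.14. Sdf2l1, a cochaperone subunit of the BiP complex, was at 38.3, 42.9 and 37.4 CPM in Ctrl and 40.9, 33.6 and 28.6 CPM in DTR, with overlapping groups and an estimate of -0.2 ± 0.144 (-0.33 without DTR 1, -0.08 without DTR 3). Hyou1, the nucleotide exchange factor GRP170, had an estimate of -0.19 ± 0.119 (-0.3 without DTR 1, -0.11 without DTR 3). Dnajb9 (ERdj4), a BiP cochaperone that restrains IRE1α, was the gene with the highest estimate of the 35, 0.14 ± 0.13 (0.02 without DTR 3), with 30.7, 28.1 and 32.4 CPM in Ctrl and 29.4, 32.2 and 38.8 CPM in DTR, and only DTR 3 above every Ctrl library. The cochaperones Dnajb11 (-0.07 ± 0.101) and Dnajc3 (-0.07 ± 0.0745) and the secreted factor Manf (-0.05 ± 0.107) were near 0. In all, 8 of the 9 estimates in the class were below 0 and their median was -0.07.

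The lectin chaperones and PDIs had lower means in DTR for 5 of 6 genes, with the most separated values in Pdia4. Pdia4 (ERp72), a PDI, was at 796, 850 and 866 CPM in Ctrl and at 720, 720 and 707 CPM in DTR. The DTR libraries differed by only 7.73 CPM (SD), all lay below the Ctrl libraries, and the log2 fold change was -0.23 ± 0.0804 (unadjusted p = 0.0224, adjusted p = 0.602). P4hb, the PDI that is also the β-subunit of collagen prolyl 4-hydroxylase, was at 1013, 865 and 922 CPM in Ctrl and 896, 723 and 723 CPM in DTR. Its groups overlapped through DTR 1, and the estimate was -0.26 ± 0.116.

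Calr, the soluble lectin chaperone, was at 1264, 1309 and 1306 CPM in Ctrl and 1245, 1103 and 1077 CPM in DTR, with DTR 1 just below Ctrl 1 and an estimate of -0.18 ± 0.0914. Canx, its membrane-bound relative, was at 1377, 1392 and 1386 CPM in Ctrl and 1398, 1335 and 1199 CPM in DTR, so that DTR 1 was above every Ctrl library. Its estimate was -0.08 ± 0.0914 (-0.12 without DTR 1, -0.02 without DTR 3). Pdia6 had an estimate of -0.13 ± 0.0976 (-0.2 without DTR 1, -0.07 without DTR 3). Pdia3 (ERp57), which works with both lectins, was at 701, 657 and 736 CPM in Ctrl and 711, 739 and 677 CPM in DTR (0.02 ± 0.0866).

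Both collagen chaperones were highest in Ctrl 1, and their means were lower in DTR. Serpinh1 was at 875, 642 and 679 CPM in Ctrl and 729, 568 and 594 CPM in DTR, with a log2 fold change of -0.22 ± 0.147 and overlapping groups. Fkbp10 was at 100, 73.8 and 78.9 CPM in Ctrl and 74.6, 63.4 and 65.1 CPM in DTR, with an estimate of -0.32 ± 0.133 (unadjusted p = 0.0457, adjusted p = 0.622). In both genes the highest library was Ctrl 1, which also had a high summed level of fibroblast markers (13691 CPM). However, DTR 3 had the highest fibroblast marker sum of all (14170 CPM) and levels of both chaperones below every Ctrl library. The part of fibroblast content in these values was not tested. Without Ctrl 1 the estimates were -0.07 for Serpinh1 and -0.17 for Fkbp10.

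**Figure D4:**
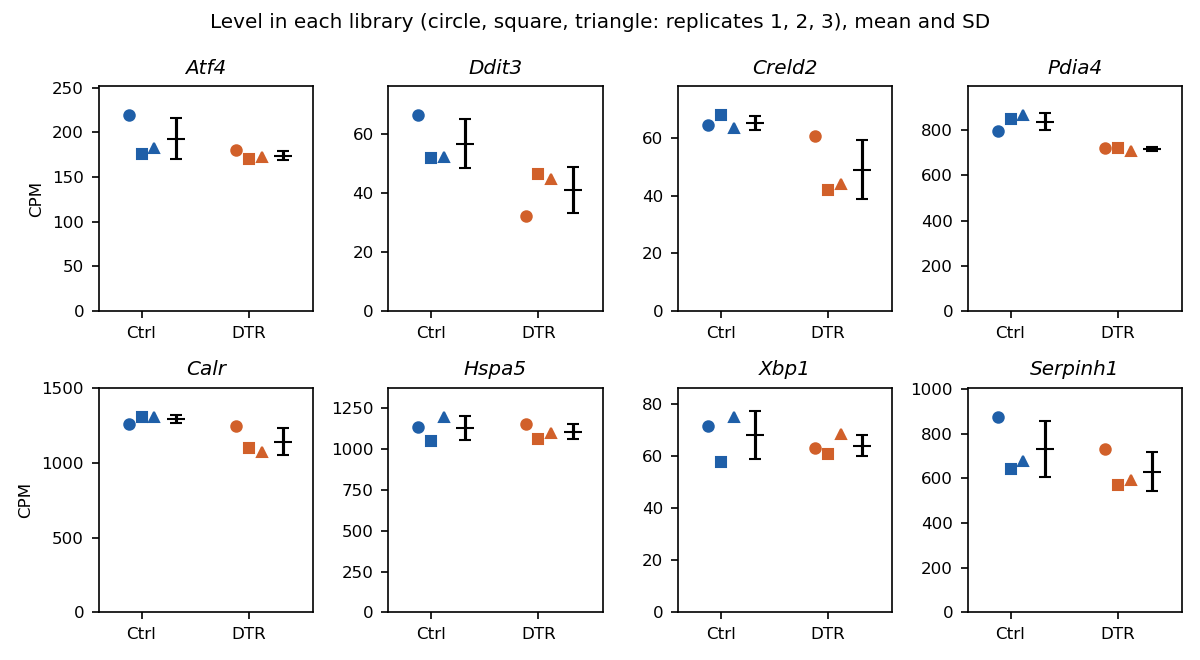
Level of 8 of the genes in each library (CPM, axes from 0), with the group mean and SD beside the points (n = 3). Ddit3, Creld2, Pdia4 and Calr have no overlap between groups, whereas Atf4, Hspa5, Xbp1 and Serpinh1 overlap.

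Of the 5 tested ERAD genes, 4 had estimates below 0, with a median of -0.15. Herpud1, a scaffold of the ubiquitin ligase complex, was at 51.1, 33.8 and 43.1 CPM in Ctrl and 33.5, 36.9 and 39.7 CPM in DTR, with the Ctrl libraries more spread than the difference (-0.22 ± 0.158, and -0.07 without Ctrl 1). Syvn1, the ligase HRD1 itself, was at 34.7, 35 and 33.7 CPM in Ctrl and 33.8, 24.9 and 34.7 CPM in DTR (-0.15 ± 0.14, and -0.01 without DTR 2), with DTR 2 alone below the Ctrl range. Sel1l, the partner of HRD1, had an estimate of -0.15 ± 0.0837.

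Derl1, a channel component, was at 95.1, 96.7 and 92.7 CPM in Ctrl and 95, 86.6 and 85.8 CPM in DTR (-0.09 ± 0.0818). Edem1, which marks misfolded glycoproteins for disposal, was at 151, 142 and 146 CPM in Ctrl and 158, 146 and 143 CPM in DTR (0.03 ± 0.0802). Derl3, a relative of Derl1 known from secretory cells such as plasma cells, did not pass the filter on low counts. It had 6, 1 and 6 counts in Ctrl and 9, 11 and 16 counts in DTR, or 0.245, 0.0419 and 0.211 CPM compared with 0.262, 0.354 and 0.706 CPM. The DTR libraries lay above the Ctrl libraries (two-sided exact permutation p = 0.1, the smallest possible), at levels where 3 counts, the floor, are 0.0873 to 0.132 CPM. Summed B and plasma cell markers were 23.0, 37.7 and 67.2 CPM in Ctrl and 55.2, 93.4 and 76.2 CPM in DTR. Jchain led that sum, at 14.7 to 69.8 CPM, and Igkc was at 0 in every library. The part of such cells in the Derl3 counts was not tested.

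The sensors differed little. Xbp1 was at 71.2, 57.5 and 74.9 CPM in Ctrl and 62.9, 60.5 and 68.3 CPM in DTR (-0.09 ± 0.12, -0.19 without Ctrl 2 and -0.01 without Ctrl 3), and the lowest and the highest library were both Ctrl. Counts per gene do not show how much of the Xbp1 mRNA was spliced. Eif2ak3 was at 95, 96.9 and 97.8 CPM in Ctrl and 93.5, 84.1 and 87.8 CPM in DTR, without overlap but with DTR 1 close to Ctrl 1, and had an estimate of -0.13 ± 0.0804. Atf6 was at 182, 218 and 172 CPM in Ctrl and 150, 203 and 152 CPM in DTR (-0.18 ± 0.145), with DTR 2 inside the Ctrl range, and the estimate ran from -0.34 without DTR 2 to -0.07 without Ctrl 2. Ern1 was at 65.3, 70.7 and 63.7 CPM in Ctrl and 54.4, 74.5 and 63.3 CPM in DTR (-0.05 ± 0.127), with both the lowest and the highest library in DTR. Atf6, Ern1 and Eif2ak3 span 163098, 93203 and 60731 bases, of which exons cover 5.66%, 8.77% and 9.92%, and with an offset for gene span their estimates were -0.36, -0.19 and -0.23, beside a median of -0.0751 over all genes.

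In the ATF4 and CHOP branch all 9 estimates were below 0, with a median of -0.17, although those of Psat1 and Ppp1r15a were close to 0 and most genes were highest in Ctrl 1. Without Ctrl 1, 6 of the 9 were below 0, with a median of -0.04, and with DESeq2-type size factors or in DESeq2 7 of the 9 were. Atf4 was at 219, 176 and 182 CPM in Ctrl and 180, 170 and 172 CPM in DTR (-0.15 ± 0.101, and -0.04 without Ctrl 1), and the groups overlapped because Ctrl 2 lay below DTR 1. Since ATF4 is controlled mainly in translation, its mRNA is an incomplete measure of its activity. Ddit3 was at 66.5, 52.0 and 52.2 CPM in Ctrl and 32.2, 46.5 and 44.9 CPM in DTR. All DTR libraries were below all Ctrl libraries, DTR 1 most, and the log2 fold change was -0.47 ± 0.167 (95% interval -0.85 to -0.08, unadjusted p = 0.0237, adjusted p = 0.602). When each library was left out in turn, the estimate for Ddit3 ran from -0.56 to -0.3. A second annotated gene of the same name covers 53% of the Ddit3 span on the same strand and had 0 counts in every library, so that reads from the shared stretch may be missing from these values.

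The targets downstream were less separated. Trib3, a pseudokinase that CHOP and ATF4 induce, was at 18.3, 11.1 and 13.5 CPM in Ctrl and 10.5, 11.1 and 13.1 CPM in DTR (-0.31 ± 0.208, and -0.09 without Ctrl 1), and Chac1, a glutathione-degrading enzyme, at 6.9, 4.4 and 4.96 CPM and 3.66, 4.41 and 6.04 CPM (-0.21 ± 0.288, and 0.00438 without Ctrl 1). Both overlapped, and both are CARE-bearing genes. Ppp1r15a (GADD34), the phosphatase subunit that reverses eIF2α phosphorylation, was at 57.6, 39.7 and 42.9 CPM in Ctrl and 43.6, 42.4 and 53.7 CPM in DTR (-0.01 ± 0.164). Sesn2, a leucine sensor, had an estimate of -0.17 ± 0.126, and another annotated gene without counts covers 33% of its span.

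Asns, asparagine synthetase, was at 86.9, 61.3 and 71.8 CPM in Ctrl and 66.0, 66.4 and 65.1 CPM in DTR (-0.16 ± 0.13, and -0.02 without Ctrl 1), with the DTR libraries inside the Ctrl range. Phgdh, the first enzyme of serine synthesis, was at 37.7, 29.0 and 31.2 CPM in Ctrl and 31.8, 26.1 and 23.3 CPM in DTR (-0.27 ± 0.154, and -0.15 without Ctrl 1). Of the 50-base words of its transcripts, 47.8% also occur in a near copy, Gm7901, which had 9 to 18 counts, so reads of the pair are uncertain. Psat1, the second enzyme of the pathway, was at 62.6, 40.4 and 49.1 CPM in Ctrl and 62.5, 53.1 and 36.2 CPM in DTR (-0.00205 ± 0.224), and it had the widest spread within groups of the 35 genes (SD 0.359 on the log2 scale).

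The medians of the roles lay close together. The median log2 fold change was -0.07 for the BiP and GRP94 chaperones, -0.16 for the lectin chaperones and PDIs, -0.27 for the collagen chaperones (-0.12 without Ctrl 1), -0.15 for ERAD, -0.11 for the sensors and -0.17 for the ATF4 and CHOP branch. Over the first 3 roles together, 15 of 17 chaperone estimates were below 0 (median -0.13), compared with 4 of 4 sensors and 9 of 9 genes of the ATF4 and CHOP branch. The intervals of the single genes are wider than these differences, and no difference between roles was tested. Ctrl 1 held the highest value of 13 of the 35 tested genes, and DTR 3 the lowest of 13.

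The libraries with the extreme values differed by role. In the ATF4 and CHOP branch Ctrl 1 lay 0.323 log2 units above the genes' own means on average, with 8 of 9 genes above, and the other 5 libraries lay between -0.12 and 0.0406. In the chaperone roles Ctrl 3 was high too: 9 of 9 BiP and GRP94 chaperones and 6 of 6 lectin chaperones and PDIs were above their own mean there, and 1 of 9 and 0 of 6 in DTR 3. The median of the BiP and GRP94 chaperones was -0.02 without Ctrl 3 and -0.02 without DTR 3, whereas that of the lectin chaperones and PDIs stayed between -0.21 and -0.11 whichever library was left out. Over all 35 genes the count of estimates below 0 was 29 (without Ctrl 1) to 33 (without Ctrl 2).

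**Figure D5:**
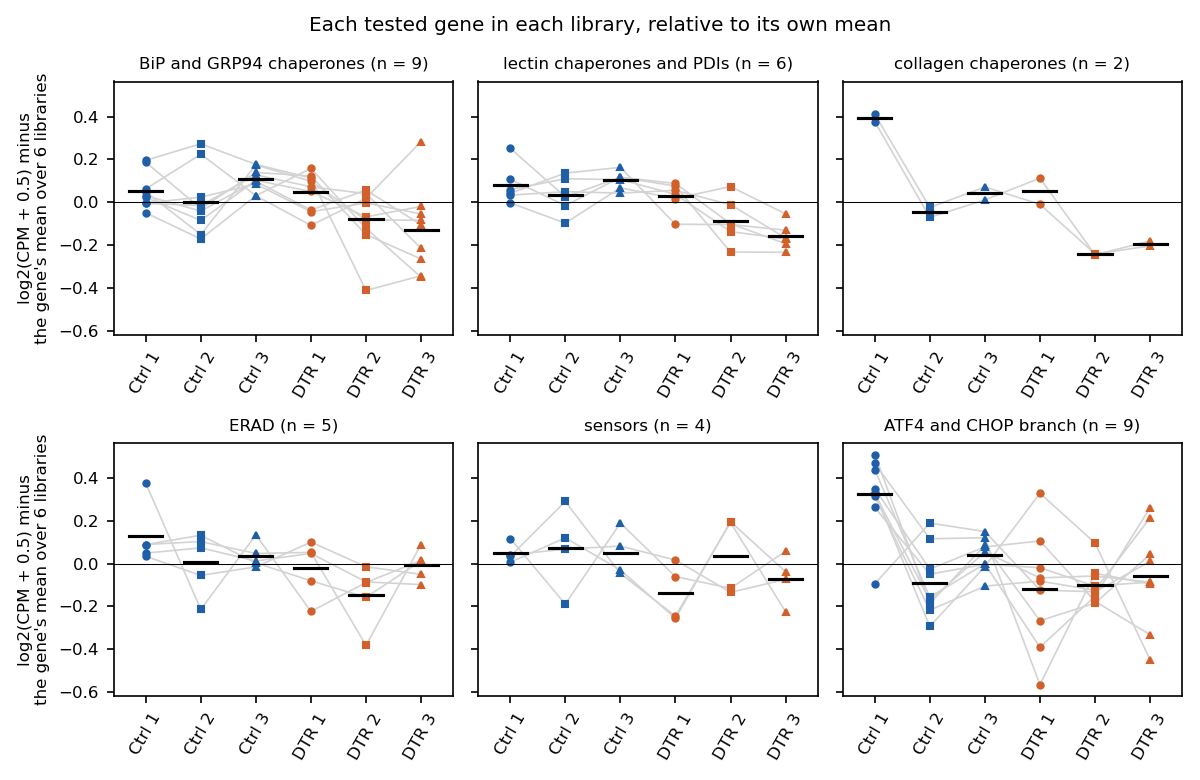
Each tested gene in each library as log2(CPM + 0.5) minus the gene's mean over the 6 libraries, by role (grey lines join the values of 1 gene, black bars are role means). In the ATF4 and CHOP branch the bar of Ctrl 1 stands at 0.323, and in the lectin chaperones and PDIs that of DTR 3 at -0.159.

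Read against the promoter elements shown above, the 10 tested genes with an ERSE or ERSE-II had log2 fold changes from -0.41 (Creld2) to -0.03 (Hspa5), with a median of -0.11. The 4 with a CARE had -0.31 (Trib3) to -0.16 (Asns), with a median of -0.21. The 17 with a window but no match to these elements had -0.47 (Ddit3) to 0.14 (Dnajb9), with a median of -0.15. Hspa5 and Creld2, whose upstream sequences both hold an ERSE, mark the upper and the lower end of the first group. The ranges of the 3 groups overlapped. This is a description over few genes, and a match is not a proven site. Only exact letters within the windows were searched, so a gene without a match may still hold such an element.

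Other genes of the same processes, from lists that do not include the 36, had 0 adjusted p under 0.05 as well. Of 29 other ER folding factors, 18 had estimates below 0 and the median was -0.08 (-0.01 without DTR 3). The oxidase Ero1l, which recharges PDIs, was at 133 ± 20.7 CPM in Ctrl and 105 ± 11.9 CPM in DTR (-0.35 ± 0.133), and the PDI-like Erp29 at 80.7 ± 1.82 CPM and 62.2 ± 9.41 CPM (-0.38 ± 0.118), both without overlap and at unadjusted p of 0.0307 and 0.013. In all, 7 of the 29 genes were without overlap and lower in DTR, beside 8.18% of all genes, and 1 was higher, beside 6.32%, the glucosyltransferase gene Uggt2, named after its values were seen, at 16.6 ± 1.75 CPM in Ctrl and 19.8 ± 1.26 CPM in DTR (0.26 ± 0.132). The ends of that list were Cdnf (-0.38 ± 0.944) and Fkbp7 (0.3 ± 0.232). Of 18 tested other ERAD genes, 11 were below 0 (median -0.06, and -0.03 without Ctrl 3 or DTR 1), from the lectin Os9 (-0.24 ± 0.105) to Herpud2 (0.24 ± 0.143). Of 22 other regulators of the unfolded protein and integrated stress responses, 18 were below 0 (median -0.07). They included the ATF6 relative Atf6b, at 36 ± 2.76 CPM in Ctrl and 28.6 ± 2.47 CPM in DTR (-0.33 ± 0.113), and the ER-bound factor Creb3l2 (-0.22 ± 0.0876). The list ended at Traf2 (-0.36 ± 0.169) and the protease gene Mbtps2 (0.34 ± 0.149). Atf6b and Creb3l2 were among 3 of the 22 genes without overlap and lower in DTR, beside 8.18% of all genes. Mbtps2 was the 1 gene without overlap and higher, beside 6.32%.

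Of 34 tested other ATF4 target genes, 27 were below 0 and 7 above, with a median of -0.15 and a wider range than in the branch, from -1.01 to 0.53. The cysteinyl-tRNA synthetase gene Cars was at 79.5, 65.6 and 68.4 CPM in Ctrl and 56.5, 55.9 and 56.4 CPM in DTR (-0.34 ± 0.1, unadjusted p = 0.00952, adjusted p = 0.602). All DTR libraries lay below the Ctrl libraries there, and likewise for the alanyl-tRNA synthetase gene Aars (-0.19 ± 0.0776) and the mitochondrial folate enzyme gene Aldh1l2 (-0.44 ± 0.169). In all, 7 of the 34 genes were without overlap and lower in DTR, beside 8.18% of all genes, and 0 were higher, beside 6.32%. The lowest estimate was that of the stress cytokine gene Gdf15 (-1.01 ± 0.469, at 2.90 CPM or less in every library) and the highest that of Atf3 (0.53 ± 0.492), which was at 121 CPM in DTR 3 and at 66.6 CPM or less elsewhere. Ctrl 1 again stood apart, 0.319 log2 units above the genes' own means on average, and without it 21 of the 34 estimates were below 0, with a median of -0.09. Of the 28 of these genes with a promoter window, 12 held a CARE.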

How the data were processed

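The authors trimmed reads with cutadapt 3.4, aligned them to GRCm38 with STAR 2.7.3a and counted them per gene and strand with featureCounts 2.0.1, and the deposited raw counts were used here. The libraries were made with a stranded total RNA kit. The feature type counted is not given in the sources used here. All 446 protein-coding genes that lie wholly inside another gene on the same strand had 0 counts in all libraries, compared with 21.3% of 21521 others, as counting over whole gene spans would give, so introns may be included. Deposited normalised values (6 columns) and the authors' own fold changes and p-values were not used. Of 53801 genes, 27987 have no name in the table.

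The 36 genes and all other lists were chosen with earlier results of these data known. Genes were filtered with edgeR's filterByExpr (minimum count 10, minimum total 15), which left 15133, scaled with TMM factors and tested with edgeR 4.0.16 (quasi-likelihood, group only, 7.94 degrees of freedom) under R 4.3.3. The tests were checked on simulated data with changes far larger than the estimates of these genes. That check does not cover changes as small as those estimates. DESeq2 1.42.0 was an alternative. Exact permutation tests used log2(CPM + 0.5). All 36 genes are named, with values per library for the ends of each role, for genes whose groups do not overlap and for Hspa5, Xbp1, Atf4 and Ddit3; of other lists, the ends and those with the lowest unadjusted p. Coordinates of spans come from GENCODE M21, and promoters from RefSeq GRCm38.p6. Of 32 windows, 29 matched the gene's own transcripts in the given orientation. Those of Trib3, Pdia4 and Dnajc3 matched in neither orientation, and printed elements of Trib3 and Dnajc3 come from these windows. ERAD, ER-associated degradation; CPM, counts per 1000000 after TMM scaling.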

Additional observations from a re-analysis of the deposited data

How the results depend on the processing

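Of 455 estimates of the 35 genes under 13 alternatives, 0 passed the threshold (lowest adjusted p 0.437) and 25 had the opposite sign, in 9 genes, while 25 genes were lower in DTR under every alternative. The replicate numbers were not taken to pair the libraries, since not every same-numbered pair correlated: correlations of deviations were 0.146, 0.162 and -0.065, and -0.267 to 0.144 between unlike numbers. With a replicate block 0 genes were called, with Ppp1r15a at 0.01. Ppp1r15a was also above 0 with DESeq2 (0.00467), DESeq2-type size factors (0.01), library size alone (0.03) and a minimum of 1 count in any library (0.00411), and Psat1 was above 0 in those (0.01, 0.01, 0.03 and 0.01) and with at least 10 counts in every library (0.00358). With an offset for genomic span Edem1 and Pdia3 were both at -0.04, and the medians of the BiP and GRP94 chaperones and of the sensors were -0.14 and -0.21. That offset put 34 of the 35 genes below 0, but also 9303 of 15121 genes. When each library was left out in turn, the estimates that changed sign ran from -0.42 to 0.00438 (Chac1), -0.11 to 0.02 (Dnajb11), -0.01 to 0.06 (Edem1), -0.18 to 0.06 (Ern1), -0.08 to 0.02 (Hspa5), -0.13 to 0.03 (Manf), -0.02 to 0.07 (Pdia3), -0.12 to 0.17 (Ppp1r15a) and -0.17 to 0.19 (Psat1), and the ERAD median from -0.2 to -0.07 (without DTR 2). Of all genes, 0 to 2 were then called, 2 of them without Ctrl 1, compared with 0 by edgeR, where 1199 had an unadjusted p under 0.05, and 31 by DESeq2. The cause of these moves was not tested. With 3 libraries a group, standard errors of 0.0745 to 0.288 log2 units limit what could be seen.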

Other observations

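Of 17 genes that bring proteins into the ER (translocon, TRAP complex and signal peptidase), 11 had estimates below 0, with a median of -0.07, compared with 8 and a median of 0.00439 without Ctrl 1 and 14 and -0.1 without Ctrl 2. They ran from Sec11c (-0.21 ± 0.0992) to Sec61g (0.68 ± 0.324, at 6.43 CPM or less). Of 17 cytosolic and mitochondrial heat shock genes, which belong to another stress response, 10 were below 0, with a median of -0.06 (-0.03 without Ctrl 1), from Hspa1a (-0.54 ± 0.435) to Hspb1 (0.22 ± 0.419). The cytosolic chaperone Hsp90ab1 was at 2981, 3092 and 2896 CPM in Ctrl and 2832, 2346 and 2294 CPM in DTR, without overlap (-0.26 ± 0.11, adjusted p = 0.611 by edgeR). Dnaja1, a cytosolic HSP70 cochaperone named after its values were seen, was without overlap in the other direction, at 72.8, 77.1 and 87.4 CPM in Ctrl and 89.8, 91.4 and 94.7 CPM in DTR (0.22 ± 0.0944, adjusted p = 0.629 by edgeR). No gene of either list had an adjusted p under 0.05.

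Of 4 ratios within libraries, chosen after the values were seen and given without a test, that of the CPM of Ddit3 over Atf4 was 0.303, 0.295 and 0.286 in Ctrl and 0.179, 0.274 and 0.261 in DTR. The ratio of Serpinh1 over Col1a1 was 0.383 ± 0.161 in Ctrl and 0.269 ± 0.09 in DTR (SD, n = 3), that of Hspa5 over Hsp90b1 0.713 ± 0.0123 and 0.73 ± 0.0603, and that of Ero1l over P4hb 0.142 ± 0.0132 and 0.136 ± 0.0261.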
